A study of Mus musculus with 18 samples.

Results

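Midday and midnight were compared in the dermis of the mouse back: libraries collected at zeitgeber time 6 (ZT6, 6 h after lights on) against libraries collected at ZT18 (18 h after lights on). Each group held 3 wild-type male C57BL/6J mice kept under 12 h of light and 12 h of dark, and each mouse gave 1 droplet single-cell RNA library of live, sorted cells from collagenase-digested dorsal dermis. These 6 libraries, chosen by their titles, are part of a series of 18 libraries from 6 zeitgeber times. The mice were young adults with resting hair follicles, none carried an engineered allele, and none received a treatment other than the light schedule. ZT6 mice were collected at 6, 30 and 54 h and ZT18 mice at 18, 42 and 66 h, so that replicate 1, 2 and 3 of a group came from successive days.

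Of 6720 barcodes in the 6 libraries, 4386 had 850 to 7800 detected genes and under 13% mitochondrial transcripts and were kept as cells. Among them 3291 were fibroblasts, defined as cells with at least 20 unique molecular identifiers (UMIs, 1 per captured transcript) of Col1a1, Col1a2 and Col3a1 together, at least 1 of Pdgfra and none of Ptprc. Fibroblasts numbered 766, 179 and 706 at ZT6 and 106, 339 and 1195 at ZT18. A further 559 cells had Ptprc, the gene of the leukocyte antigen CD45, without Pdgfra and with fewer than 20 collagen UMIs. UMIs were summed over the cells of each mouse, and the mouse was the replicate. Levels are given as CPM (UMIs of a gene per 1000000 UMIs of the normalized library), and log2 differences are ZT6 minus ZT18. The value after ± of a log2 difference is an approximate standard error (SE). It is the absolute difference divided by the square root of the F statistic of its edgeR test, not an error estimated by the model.

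The circadian clock of mammalian cells is a feedback loop of transcription. The activators BMAL1, encoded by Arntl, and CLOCK bind E-box sequences and drive the Period and Cryptochrome genes, whose proteins return to the nucleus and silence them. A further loop runs through REV-ERB (Nr1d1, Nr1d2) and ROR receptors, which compete for a shared element in Arntl, Nfil3 and Cry1, and another through the D-box factors DBP, TEF and HLF and their repressor NFIL3. In skin, fibroblasts carry such a clock alongside their work of making collagen and elastic matrix.

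The binding sequences of these 3 arms could be read in RefSeq promoter windows of GRCm38.p6, the build to which the counts were aligned. Each window held 250 bases before a start site and 50 after it. Windows were found for 63 of the 91 genes that differed in fibroblasts and for 17 of 20 core clock genes. The 250 bases before the start site are given for 6 clock and clock-linked genes, because they hold the letters of 1 arm of the loop, which stand in capitals. For Arntl, whose match lies after its start site, the site and 10 bases on either side are given. Distances are those of the first base of a match.
Cry1, chr10:85185055-85185304, minus strand, E-box CACGTG 60 bases before the start site: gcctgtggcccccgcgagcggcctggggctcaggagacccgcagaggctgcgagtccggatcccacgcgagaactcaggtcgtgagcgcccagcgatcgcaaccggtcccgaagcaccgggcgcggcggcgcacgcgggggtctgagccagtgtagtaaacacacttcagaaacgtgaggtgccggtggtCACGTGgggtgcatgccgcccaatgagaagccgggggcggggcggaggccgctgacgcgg
Bhlhe41, chr6:145865421-145865670, minus strand, E-box 153 bases before: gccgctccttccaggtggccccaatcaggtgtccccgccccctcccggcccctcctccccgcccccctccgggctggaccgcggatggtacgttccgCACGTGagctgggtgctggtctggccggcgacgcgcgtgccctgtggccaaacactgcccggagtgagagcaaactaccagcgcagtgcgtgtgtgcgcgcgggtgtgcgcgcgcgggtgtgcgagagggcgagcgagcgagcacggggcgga
Klf11, chr12:24651121-24651370, plus strand, E-box 214 bases before: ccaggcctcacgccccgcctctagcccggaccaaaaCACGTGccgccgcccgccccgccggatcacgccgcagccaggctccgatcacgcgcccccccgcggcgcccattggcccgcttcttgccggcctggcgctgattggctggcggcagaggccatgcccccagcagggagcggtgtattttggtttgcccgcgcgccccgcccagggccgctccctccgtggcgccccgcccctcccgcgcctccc
Ciart, chr3:95882229-95882478, minus strand, E-boxes 116, 58 and 44 bases before: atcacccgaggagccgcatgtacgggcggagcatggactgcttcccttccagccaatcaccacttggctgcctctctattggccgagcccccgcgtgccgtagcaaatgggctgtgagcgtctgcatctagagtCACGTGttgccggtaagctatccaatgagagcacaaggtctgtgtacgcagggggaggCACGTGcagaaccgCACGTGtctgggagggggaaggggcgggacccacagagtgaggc
Per3, chr4:151044666-151044915, minus strand, D-boxes TTATGTAA 205 and 158 bases before: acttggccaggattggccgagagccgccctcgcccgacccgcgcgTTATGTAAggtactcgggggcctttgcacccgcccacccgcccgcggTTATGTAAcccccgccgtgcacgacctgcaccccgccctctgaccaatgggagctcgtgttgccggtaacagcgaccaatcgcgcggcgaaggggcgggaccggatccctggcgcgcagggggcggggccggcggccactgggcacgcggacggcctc
Nfil3, chr13:52981040-52981289, minus strand, REV-ERB/ROR element on the other strand (TGACCTA as printed) 12 bases before: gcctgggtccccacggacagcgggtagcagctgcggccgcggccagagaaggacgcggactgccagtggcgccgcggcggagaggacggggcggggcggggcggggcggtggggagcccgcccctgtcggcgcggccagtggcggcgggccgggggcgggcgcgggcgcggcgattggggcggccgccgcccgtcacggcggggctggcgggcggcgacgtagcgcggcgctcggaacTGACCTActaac
Arntl, chr7:113207531-113207557, plus strand, REV-ERB/ROR element TAGGTCA at base 31 after the start site: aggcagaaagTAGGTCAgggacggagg
Of all 32851 promoter windows, 7.15% held an E-box (CACGTG), 1.06% a D-box (TTATGTAA, TTACGTAA or TTACATAA, either strand) and 6.45% a REV-ERB/ROR element (TAGGTCA or TGGGTCA, either strand). Counted by gene, an E-box stood in 8 of 38 genes called higher at ZT6 and in 2 of 25 called higher at ZT18, against 11.8% of 9379 genes tested. Of the core clock genes, 5 of 17 held an E-box, and the windows of Nr1d1, Nr1d2 and Dbp held none of the motifs counted here. A REV-ERB/ROR element stood in 2 of 38 and 4 of 25 genes, against 6.03% of genes tested. The 4 genes higher at ZT18 with this element were Arntl, Nfil3, Cxcl13 and Homer2, the last a scaffold protein gene. The D-box stood in Gm19522 and Homer2, both higher at ZT18, in 0 of 38 genes higher at ZT6 and in 0.874% of genes tested. The cAMP response element TGACGTCA was found in Hlf and in no other called gene, against 3.53% of genes tested. The heat shock element GAANNTTC stood in 2 of 38 genes higher at ZT6 and 4 of 25 higher at ZT18, against 7.05% of genes tested.

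Libraries differed widely in size. Fibroblast totals lay between 2878960 and 24290741 UMIs, with ZT18 replicate 1 and ZT6 replicate 2 the smallest, and Ptprc-positive totals between 432145 and 1929899. Any 2 of the 6 libraries shared at most 1 cell barcode. The genes that chose the fibroblasts did not pass the test between the times: the gate genes Col1a1, Col1a2, Col3a1 and Pdgfra differed between ZT6 and ZT18 by log2 0.21, 0.11, 0.15 and 0.01 with adjusted p between 0.8401 and 0.9964 in edgeR. RNA of other cells was present in the fibroblast sums. The 5 red blood cell markers together reached 65.97 to 1132 CPM at ZT6 and 978 to 1531 CPM at ZT18, and the 6 skeletal muscle markers 9.24 to 193 CPM and 22.2 to 262 CPM. The 5 red blood cell markers and the 5 skeletal muscle markers that could be tested all had negative log2 differences, with medians of -1.03 and -0.91. ZT6 replicate 1 stood apart in both sums, at 65.97 CPM of red blood cell markers against 720.03 and 1132 CPM in the other ZT6 libraries and at 9.24 CPM of muscle markers against 193 and 53.9 CPM. The muscle sums of those other libraries lay within the ZT18 range. Without ZT6 replicate 1, 35 genes were called in fibroblasts in place of 91. Fewer still were called without ZT18 replicate 2 (32) or ZT18 replicate 3 (13). The 6 immune markers together lay at 9.73 to 21.97 CPM at ZT6 and 6.60 to 14.45 CPM at ZT18. Cd3e was at 0 in all 6 libraries, and Ptprc, also among the 6, was at 0 because the gate allowed none. The 3 immune markers that could be tested all had positive log2 differences, with a median of 0.59. No marker of these lists passed the test, and their part in the results was not tested.

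In fibroblasts, 91 of 12077 genes tested, or 0.753%, differed between ZT6 and ZT18 at an adjusted p under 0.05 (edgeR quasi-likelihood test). Of these, 48 were higher at ZT6 (0.397% of genes tested) and 43 at ZT18 (0.356%). Fold changes of the first group ran from 1.39 to 48.8 with a median of 1.85, and those of the second from 1.36 to 11.4 with a median of 1.75. More than 2-fold were 21 and 15 genes. In all 91 genes the 3 ZT6 libraries lay on one side of the 3 ZT18 libraries, a pattern seen in 19.8% of genes tested. The core clock list stood out by count, with 10 of its 19 tested members called, and no other list had more than 4. Members of lists are counted against the share of 0.753%. Of all genes tested, 5967 had a positive and 6110 a negative difference. Members of a list were measured in the same 6 mice, so that counts of signs within lists are a description only. The plot of fold change against level shows where the called genes lie among all genes.

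**Figure D1:**
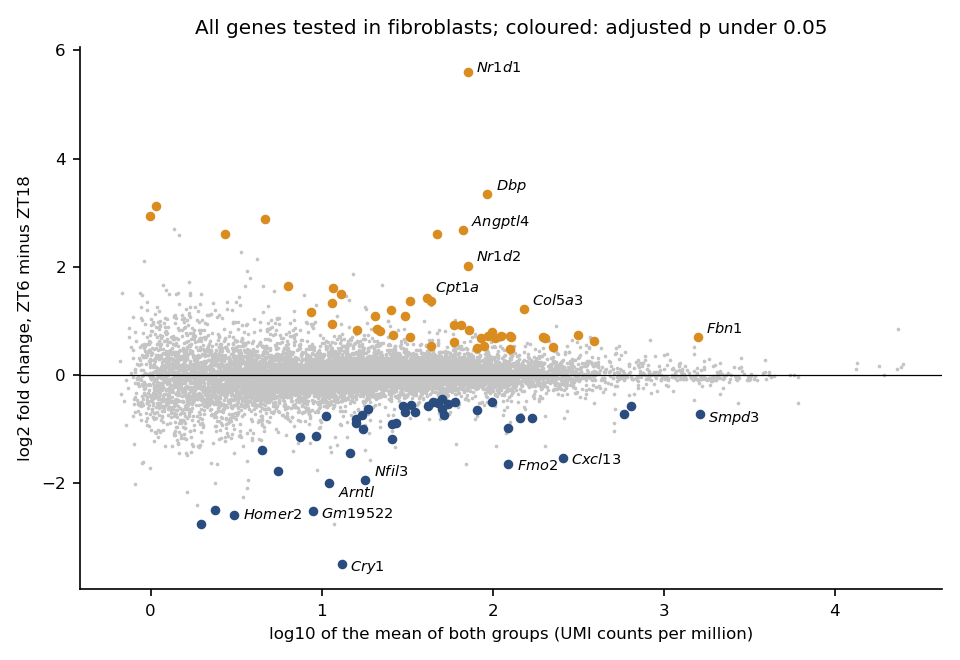
Log2 fold change in fibroblasts (ZT6 minus ZT18) against the log10 mean level in CPM, 1 point per gene for 12077 genes. Orange points (48, higher at ZT6) and blue points (43, higher at ZT18) have an adjusted p under 0.05; Nr1d1 at 5.61 and Cry1 at -3.50 lie farthest from 0 among the called genes.

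Whichever of the 6 libraries was left out, 12 genes kept an adjusted p under 0.05. They were Nr1d1, Nr1d2, Dbp, Hlf, Angptl4, Cpt1a and Klf11 at ZT6 and Cry1, Gm19522, Fmo2, Scd2 and Homer2 at ZT18, named here after their values were seen. The other 79 lost it without at least 1 library. Calls numbered 35, 52 and 328 without ZT6 replicate 1, 2 or 3 and 77, 32 and 13 without ZT18 replicate 1, 2 or 3. Of the 91 genes, these fits kept 32, 49, 90, 57, 31 and 13. The deepest library, ZT18 replicate 3, thus carried more of the calls than any other, and for called genes described below the largest adjusted p with 1 library left out is given with their group. Collection day as a replicate block kept 59 of the 91 genes, and its adjusted p is given where it lost a call or made one.

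The REV-ERB receptors, heme-binding repressors of the clock, were both higher at midday, and Nr1d1 had the largest fold change of all called genes. Nr1d1 (mm10 chr11:98767932-98775333, minus strand, like all gene positions given here from the GENCODE annotation of that build) measured 128, 127 and 167 CPM at ZT6 and 2.06, 1.61 and 3.69 CPM at ZT18. Day and night libraries did not come near each other, and the difference was 48.8-fold (log2 5.61 ± 0.24, adjusted p = 6.71e-06). The 3' end of Nr1d1 overlaps that of Thra on the other strand by 1075 bases, and Thra itself changed by log2 0.26 (adjusted p = 0.307). Nr1d2 measured 107, 109 and 127 CPM at ZT6 and 35.4, 21.4 and 29.7 CPM at ZT18, 4.06-fold higher at ZT6 (log2 2.02 ± 0.16, adjusted p = 0.000467). Both receptors thus fell together at midnight, Nr1d1 to below 4 CPM and Nr1d2 to between 21.4 and 35.4 CPM.

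The D-box activators were also higher at midday than at midnight. Dbp was at 154, 124 and 226 CPM at ZT6 and 26.8, 9.76 and 17.3 CPM at ZT18, a difference of 10.1-fold (log2 3.34 ± 0.31, adjusted p = 0.00204). Its relative Tef was at 89.3, 84.5 and 105 CPM at ZT6 and 59.0, 41.2 and 57.4 CPM at ZT18, 1.79-fold higher at ZT6 (adjusted p = 0.0322). Hlf, the third, was at 27.3, 26.4 and 29.7 CPM at ZT6 and 13.7, 13.6 and 12.6 CPM at ZT18, 2.12-fold higher (adjusted p = 0.00249). All 3 activators were higher at ZT6 than at ZT18, Dbp by far the most. Their highest means over the 6 zeitgeber times were at ZT10. Their repressor Nfil3 went the other way, with 6.72, 10.2 and 6.81 CPM at ZT6 and 20.6, 41.7 and 22.05 CPM at ZT18, 3.83-fold higher at midnight (log2 -1.94 ± 0.28, adjusted p = 0.0142). With 1 library left out the adjusted p reached 0.115 for Tef and 0.0894 for Nfil3 (without ZT6 replicate 1), while that of Dbp and Hlf stayed below 0.05.

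Among the repressors of the first loop the members parted. Cry1 (chr10:85131700-85185064, minus strand) measured 2.22, 2.56 and 1.88 CPM at ZT6 and 20.6, 26.1 and 25.5 CPM at ZT18. Its 6 libraries fell into 2 tight groups, 11.4-fold apart (log2 -3.50 ± 0.17, adjusted p = 1.21e-05). Per2 was likewise higher at midnight, with 5.86, 6.398 and 11.5 CPM at ZT6 and 19.6, 18.7 and 26.2 CPM at ZT18 (2.73-fold, adjusted p = 0.0349). Cry2 did not follow Cry1: it measured 48.6, 43.5 and 53.0 CPM at ZT6 and 46.3, 34.6 and 40.3 CPM at ZT18, with overlapping groups (log2 0.29 ± 0.12, adjusted p = 0.307). Per1 gave 37.9, 29.2 and 39.8 CPM at ZT6 and 35.0, 20.8 and 18.2 CPM at ZT18, again overlapping (log2 0.67 ± 0.21, adjusted p = 0.191). Per3 was above its midnight level in every ZT6 library, at 77.2, 56.8 and 84.5 CPM at ZT6 and 52.5, 31.5 and 48.2 CPM at ZT18 (log2 0.76 ± 0.19, adjusted p = 0.11). With collection day as a replicate block its adjusted p was 0.0287. The call of Per2 was lost in 5 of the 6 fits with 1 library left out, with an adjusted p of up to 0.188.

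Of the activators 1 was called. Arntl was at 5.36, 5.63 and 3.05 CPM at ZT6 and 12.4, 20.9 and 19.2 CPM at ZT18, 3.99-fold higher at ZT18 (log2 -1.9964 ± 0.25, adjusted p = 0.00768). Its partner Clock gave 51.0, 50.7 and 42.8 CPM at ZT6 and 58.7, 63.0 and 64.4 CPM at ZT18, without overlap but with a log2 difference of only -0.38 ± 0.10 (adjusted p = 0.117). Npas2, which can stand in for Clock, was low at both times, at 1.97, 1.28 and 1.33 CPM at ZT6 and 1.72, 1.84 and 2.56 CPM at ZT18 (adjusted p = 0.626). At ZT2 and ZT22 its means were higher, at 8.32 and 8.10 CPM. Of the E-box repressors that act beside the Period and Cryptochrome proteins, Bhlhe41 was called, with 30.5, 33.3 and 41.3 CPM at ZT6 and 17.5, 15.5 and 14.2 CPM at ZT18 (2.29-fold higher at ZT6, adjusted p = 0.00586). Bhlhe40 overlapped, at 58.4, 81.1 and 52.0 CPM at ZT6 and 82.7, 54.7 and 42.1 CPM at ZT18 (adjusted p = 0.885). Ciart was scarce, at 1.52, 1.28 and 4.46 CPM at ZT6 and 0, 0.574 and 0.365 CPM at ZT18, with 106 UMIs over all fibroblasts (log2 2.70 ± 0.65, adjusted p = 0.0983). Without ZT18 replicate 3 the adjusted p was 0.0679 for Arntl and 0.0679 for Bhlhe41.

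The ROR receptors, which activate through the element that REV-ERB represses, did not show the contrast of their competitors. Rora measured 166, 184 and 144 CPM at ZT6 and 169, 147 and 136 CPM at ZT18 (log2 0.13 ± 0.12, adjusted p = 0.698). Rorb measured 74.7, 56.3 and 79.1 CPM at ZT6 and 64.2, 65.2 and 67.5 CPM at ZT18 (log2 0.11 ± 0.12, adjusted p = 0.768). None of 14 tested kinase, phosphatase and ubiquitin enzyme genes that act on clock proteins was called, their log2 differences running from -0.27 to 0.24 with a median of 0.02. Among those with the smallest p was Usp2, a deubiquitinase (log2 0.24 ± 0.13, adjusted p = 0.482). The plot of clock genes by library gives every mouse.

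**Figure D2:**
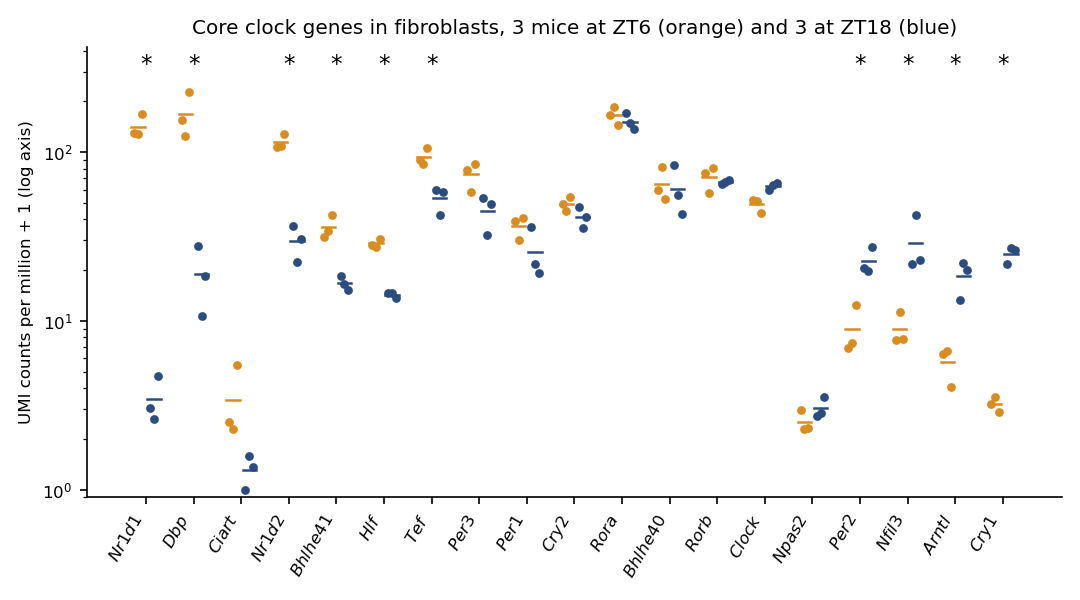
Level of 19 core clock genes in fibroblasts (CPM plus 1, log axis) in each of 3 ZT6 mice (orange) and 3 ZT18 mice (blue), with bars at the group means and genes ordered by log2 fold change. Asterisks mark the 10 genes with an adjusted p under 0.05: 6 higher at ZT6 on the left and 4 higher at ZT18 on the right.

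Genes of fasting and fat burning were the list with the most calls outside the clock. The list of the fasting and FoxO response had 3 of 24 tested members higher at ZT6 and 1 higher at ZT18, with a median log2 difference of 0.13 against -0.003 over all genes tested. Angptl4 (chr17:33773750-33781830, minus strand), a secreted inhibitor of lipoprotein lipase that rises in fasting, measured 139, 126 and 83.3 CPM at ZT6 and 18.2, 11.4 and 23.4 CPM at ZT18. It was 6.39-fold higher at midday in fibroblasts (log2 2.68 ± 0.26, adjusted p = 0.00249). Cpt1a (chr19:3322334-3385733, plus strand), the enzyme that passes long-chain fatty acids into mitochondria, measured 59.3, 66.03 and 56.3 CPM at ZT6 and 22.7, 20.1 and 24.2 CPM at ZT18. Its difference of 2.68-fold came with little spread in either group (log2 1.42 ± 0.11, adjusted p = 0.000379). Sesn3, a stress-induced brake on mTORC1 signaling and a FoxO target, was the member higher at ZT18, at 35.0, 33.5 and 31.0 CPM at ZT6 and 54.2, 50.3 and 46.1 CPM at ZT18 (1.50-fold, adjusted p = 0.0276). With 1 library left out the adjusted p reached 0.133 for Sesn3, whose call was lost in 5 of 6 such fits.

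Other called genes of fatty acid use, named after their values were seen, also stood higher at ZT6. Slc25a20, the carnitine carrier that works next to Cpt1a, was at 17.8, 25.6 and 18.9 CPM at ZT6 and 10.99, 10.8 and 11.9 CPM at ZT18 (1.78-fold, adjusted p = 0.0461, and 0.0722 with the replicate block). Acaa2, the thiolase of the last step of mitochondrial beta-oxidation, was at 176, 152 and 145 CPM at ZT6 and 85.1, 104 and 102 CPM at ZT18 (1.62-fold, adjusted p = 0.0234, and 0.0675 with the block). The fatty acid receptor Cd36 was scarce in fibroblasts, with 74 UMIs in all, at 2.07, 2.05 and 1.41 CPM at ZT6 and 0.687, 0.115 and 0.162 CPM at ZT18 (adjusted p = 0.0384, and 0.101 with the block), against 495 CPM in the pooled Ptprc-positive cells. Not all oxidation genes moved: Acadm, Hadha and Acadvl had log2 differences of -0.20, -0.09 and 0.16 with adjusted p of 0.286, 0.744 and 0.551. Leaving out any library but ZT6 replicate 3 took away the calls of Slc25a20 and Acaa2 (adjusted p up to 0.191 and 0.118), and the call of Cd36 was lost in 4 of 6 such fits (up to 0.293).

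Lipid synthesis was split. Of 23 tested genes of fatty acid and triglyceride synthesis 1 was called in each direction. Dgat2, which makes triglyceride, measured 4.25, 4.09 and 5.71 CPM at ZT6 and 0.343, 1.26 and 0.609 CPM at ZT18 (6.09-fold higher at ZT6, adjusted p = 0.0128). It was scarce in fibroblasts, with 200 UMIs in all and 1, 11 and 15 UMIs in the ZT18 libraries. Scd2, a fatty acid desaturase, measured 91.4, 84.7 and 72.0 CPM at ZT6 and 179.5, 172 and 141 CPM at ZT18 (1.98-fold higher at ZT18, adjusted p = 0.009). The sterol synthesis list had no called member, 20 of its 24 tested genes had a negative difference and its median was -0.31. Among the smallest p was that of Fdps, a prenyl diphosphate synthase, at 10.5, 11.8 and 13.4 CPM at ZT6 and 16.1, 25.6 and 15.4 CPM at ZT18 (adjusted p = 0.168). Its groups did not overlap, but it did not pass. Glycolysis had 1 call in each direction among 18 genes. Pfkfb3, which makes the activator of phosphofructokinase, was at 10.7, 9.72 and 9.47 CPM at ZT6 and 1.37, 3.33 and 3.57 CPM at ZT18 (3.14-fold higher at ZT6, adjusted p = 0.0113). Slc2a1, the glucose transporter GLUT1, was at 1.87, 1.79 and 3.44 CPM at ZT6 and 9.96, 10.3 and 6.05 CPM at ZT18 (3.41-fold higher at ZT18, adjusted p = 0.0384, and 0.102 with the replicate block). With 1 library left out the adjusted p reached 0.13 for Dgat2, 0.0679 for Pfkfb3 and 0.176 for Slc2a1, that of Scd2 staying at or below 0.0481.

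The called genes of collagen and elastic matrix described here were higher at midday. The collagen chain list had 2 of 17 tested members called, both higher at ZT6, with a median log2 difference of 0.17. Of its differences 14 were positive and 3 negative, running from -1.65 to 1.21. The largest change of the list was thus towards ZT18, in a member that was not called. Col5a3, a minor chain of type V collagen, measured 279, 193 and 164 CPM at ZT6 and 86.2, 91.8 and 96.6 CPM at ZT18 (2.32-fold, adjusted p = 0.0143). Col4a1, a basement membrane chain, measured 276, 252 and 203 CPM at ZT6 and 136, 148 and 164 CPM at ZT18 (1.62-fold, adjusted p = 0.0409, and 0.092 with the block). A further basement membrane chain that was not on the list, Col4a4, stood at 136, 141 and 99.7 CPM at ZT6 and 71.1, 74.8 and 70.8 CPM at ZT18 (1.73-fold, adjusted p = 0.0251). The fibrillar chains Col1a1, Col1a2 and Col3a1 served to choose the cells and overlapped between the groups. Loxl4, a lysyl oxidase that crosslinks collagen, was at 16.2, 18.9 and 14.2 CPM at ZT6 and 6.52, 6.32 and 6.42 CPM at ZT18 (2.53-fold higher at ZT6, adjusted p = 0.00553). Fbn1, the microfibril protein fibrillin-1, was the most abundant called gene of the midday side, at 2199.7, 1779 and 1949 CPM at ZT6 and 1155, 1274 and 1202.99 CPM at ZT18 (1.63-fold, adjusted p = 0.0202). Col4a4 and Fbn1 were named after their values were seen. With 1 library left out the adjusted p reached 0.0955 for Col5a3, 0.175 for Col4a1, 0.149 for Col4a4, 0.0557 for Loxl4 and 0.123 for Fbn1, and ZT18 replicate 3 was among the libraries needed for each call.

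The lists of matrix remodelling enzymes and of the collagen secretory pathway gave no call. None of 26 tested remodelling enzymes and inhibitors on the list, which does not hold the called Loxl4, passed the test. Loxl2 (log2 0.56 ± 0.14, adjusted p = 0.109) and Lox (log2 0.91 ± 0.25, adjusted p = 0.136) had the smallest p. In the collagen secretory pathway 0 of 29 genes were called. Kdelr3, a retrieval receptor of the secretory pathway, measured 131, 101 and 86.4 CPM at ZT6 and 74.5, 65.8 and 56.9 CPM at ZT18 (adjusted p = 0.0803, and 0.0304 with the replicate block), and the lysyl hydroxylase Plod3 had a log2 difference of -0.32 ± 0.08 (adjusted p = 0.12). In the TGF-beta pathway 1 of 25 genes was called. None of 36 genes of actin and adhesion was called, Pfn2 (log2 -0.65 ± 0.13, adjusted p = 0.0588) and Rhob (log2 0.49 ± 0.12, adjusted p = 0.108) being nearest.

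Called chaperone genes were higher at midnight. Of 28 tested genes of the endoplasmic reticulum (ER) chaperone list, 23 had a negative difference and 2 were called, both higher at ZT18. Hyou1, an ER chaperone of the HSP70 family, was at 19.7, 20.7 and 18.5 CPM at ZT6 and 28.5, 31.8 and 44.9 CPM at ZT18 (1.86-fold, adjusted p = 0.0378, and 0.0766 with the replicate block). Manf, a secreted factor induced by ER stress, was at 132, 117 and 125 CPM at ZT6 and 184, 189 and 275 CPM at ZT18 (1.74-fold, adjusted p = 0.0492, and 0.0609 with the block). Both were highest in ZT18 replicate 3. In the heat shock list 1 of 23 genes was called, the HSP70-HSP90 adaptor Stip1, at 22.4, 24.6 and 24.7 CPM at ZT6 and 34.7, 34.6 and 43.3 CPM at ZT18 (1.605-fold higher at ZT18, adjusted p = 0.0293), and 16 genes had a negative difference with a list median of -0.15. Of 4 cold-inducible RNA-binding genes none was called, Rbm3 being at 275, 276 and 264 CPM at ZT6 and 192, 221 and 201 CPM at ZT18 (log2 0.40 ± 0.09, adjusted p = 0.084) and Srsf5 at log2 0.16 ± 0.12 (adjusted p = 0.599). Leaving out 1 library raised the adjusted p to as much as 0.151 for Hyou1, 0.14 for Manf and 0.166 for Stip1.

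Immediate early genes, which also answer to tissue dissociation, had 0 of 24 members called, and 22 of the 24 had a positive difference, with a median of 0.34. Myc gave 57.5, 80.1 and 53.2 CPM at ZT6 and 25.1, 37.4 and 39.6 CPM at ZT18 (log2 0.82 ± 0.18, adjusted p = 0.0786). Klf4 gave 1604, 2033 and 1649 CPM at ZT6 and 1246, 1335 and 1115 CPM at ZT18 (log2 0.52 ± 0.12, adjusted p = 0.0957). The glucocorticoid target list had 16 of 23 positive differences, a median of 0.21 and 1 call, and that call was in the opposite direction. Cdkn1c, a brake on cyclin-dependent kinases, measured 91.0, 106 and 119.9 CPM at ZT6 and 206, 176 and 172 CPM at ZT18 (1.75-fold higher at ZT18, adjusted p = 0.0182, and 0.0507 with the replicate block). Its call held in 1 of the 6 fits with a library left out, the adjusted p reaching 0.0815. The part of dissociation in these values was not tested.

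Receptors and chemokines of inflammation also differed in both directions. The list of chemokines and inflammatory mediators had 2 of 22 tested members higher at ZT6 and 1 at ZT18. The IL-18 receptor chain Il18r1 was at 48.3, 34.8 and 43.5 CPM at ZT6 and 15.4, 23.2 and 19.9 CPM at ZT18 (2.14-fold higher at ZT6, adjusted p = 0.012). The IL-1 receptor Il1r1 was at 79.6, 112 and 69.2 CPM at ZT6 and 38.4, 49.0 and 46.3 CPM at ZT18 (1.89-fold higher, adjusted p = 0.0409). Irak3, an inhibitor of signaling downstream of both receptors, was a further called gene, at 119.8, 138 and 123 CPM at ZT6 and 79.0, 78.3 and 78.0 CPM at ZT18 (1.61-fold higher at ZT6, adjusted p = 0.00951), named after its values were seen. Cxcl13, the chemokine that draws B cells, was 2.90-fold higher at ZT18, at 133, 166 and 102 CPM at ZT6 and 229.7, 519 and 399.8 CPM at ZT18 (adjusted p = 0.0347). The interferon-stimulated list was flat, with 0 of 20 genes called and differences from -0.26 to 0.19, Irf7 (log2 0.17 ± 0.12) and Ddx58 (log2 -0.19 ± 0.14) having the smallest p. With 1 library left out the adjusted p reached 0.107 for Il18r1, 0.181 for Il1r1, 0.0844 for Irak3 and 0.143 for Cxcl13, and all 4 calls were lost without ZT18 replicate 3.

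Detoxifying enzymes differed in both directions. Of 26 tested genes of xenobiotic and haem metabolism, 2 flavin monooxygenases were called higher at ZT18 and 1 glutathione transferase at ZT6. Fmo2 (chr1:162874317-162898726, minus strand) measured 61.9, 42.2 and 72.5 CPM at ZT6 and 208, 191 and 167 CPM at ZT18 (3.14-fold, log2 -1.65 ± 0.17, adjusted p = 0.00329). Fmo1 measured 44.3, 31.7 and 39.3 CPM at ZT6 and 65.2, 67.5 and 63.7 CPM at ZT18 (1.67-fold, adjusted p = 0.0208). Gstm2 was higher at midday, at 162, 157 and 155 CPM at ZT6 and 87.9, 102 and 96.6 CPM at ZT18 (1.65-fold, adjusted p = 0.00768). The NRF2 list added 1 call among 22 genes, the peroxiredoxin Prdx6, at 486, 511 and 435 CPM at ZT6 and 331, 312 and 290.1 CPM at ZT18 (1.54-fold higher at ZT6, adjusted p = 0.0251). Fmo2 stayed at or below an adjusted p of 0.0203 with any library left out, while Fmo1, Gstm2 and Prdx6 reached 0.116, 0.0691 and 0.158.

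The lists of cell cycle, NAD metabolism, oxidative phosphorylation and ribosomal proteins had no called member. Among 21 cell cycle and replication genes, 15 had a negative difference with a median of -0.17. The replication helicase gene Mcm3 was at 3.24, 2.81 and 3.05 CPM at ZT6 and 6.87, 5.86 and 5.81 CPM at ZT18 (adjusted p = 0.0636), and cyclin D1, Ccnd1, at 52.3, 37.9 and 35.3 CPM at ZT6 and 69.3, 60.8 and 79.4 CPM at ZT18 (adjusted p = 0.0767). Of 13 NAD salvage and sirtuin genes, Nampt (log2 0.28 ± 0.11, adjusted p = 0.299) and Sirt6 (log2 -0.41 ± 0.19, adjusted p = 0.369) had the smallest p. Nuclear-encoded oxidative phosphorylation genes ran from -0.28 to 0.16 over 80 genes and cytosolic ribosomal protein genes from -0.16 to 0.04 over 79. Their medians, -0.07 and -0.06, came with 64 of 80 and 73 of 79 negative differences, and the genes with the smallest p were Cox5a (log2 -0.26 ± 0.09), Uqcrq (log2 -0.23 ± 0.08), Rpl35 (log2 -0.16 ± 0.12) and Rps2 (log2 -0.10 ± 0.11). The plot of list members sets the lists side by side.

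**Figure D3:**
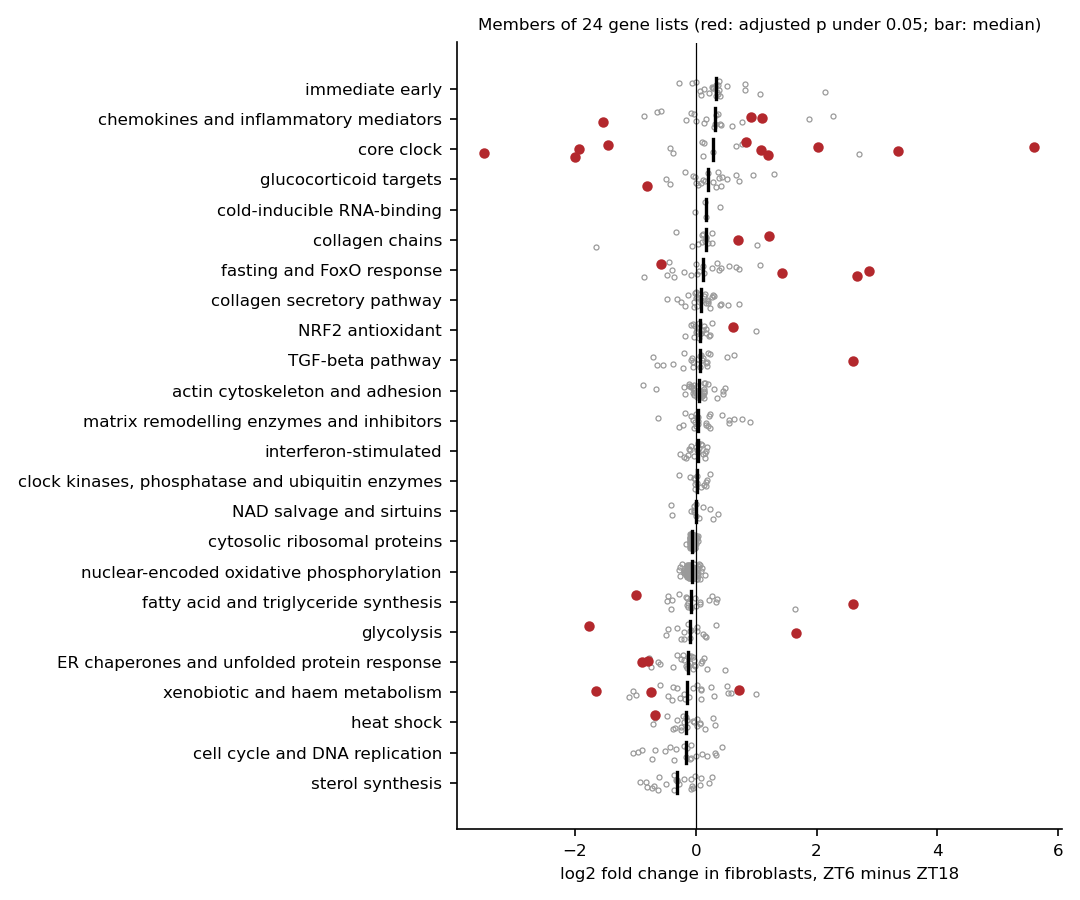
Log2 fold change in fibroblasts (ZT6 minus ZT18) of every tested member of 24 gene lists, 1 point per gene, with the list median as a black bar and called genes (adjusted p under 0.05) in red. Medians run from -0.31 (sterol synthesis) to 0.34 (immediate early), and the core clock list holds 10 of the red points.

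Genes outside the lists were named by size of change. Among genes with at least 10 CPM, the largest change towards ZT18 after Cry1 was that of Gm19522 (chr16:42884370-42912065, minus strand), a noncoding RNA annotated as antisense that lies wholly inside Zbtb20 on the other strand. It measured 2.58, 2.05 and 3.05 CPM at ZT6 and 14.8, 15.3 and 15.8 CPM at ZT18, 2 groups with almost no spread (5.75-fold, log2 -2.52 ± 0.16, adjusted p = 0.000139). Zbtb20 itself averaged 1279 CPM at ZT6 and 1329 CPM at ZT18 (log2 -0.06, adjusted p = 0.868). Whether counting used the strand is not given in the sources used here, and whether reads of Gm19522 and Zbtb20 were kept apart was not tested. Gm15551, which overlaps Camk2d on the other strand, was at 16.9, 18.9 and 18.3 CPM at ZT6 and 36.7, 25.2 and 38.4 CPM at ZT18 (1.87-fold higher at ZT18, adjusted p = 0.0361, and 0.0542 with the block). Homer2, the scaffold protein gene, was lower still in level and kept its call with any library left out, at 0.91, 0.768 and 0.783 CPM at ZT6 and 6.18, 5.63 and 4.22 CPM at ZT18 (6.02-fold higher at ZT18, adjusted p = 0.00554). The call of Gm15551 was lost in 4 of 6 fits with a library left out (adjusted p up to 0.194). Overlaps with other annotated genes also exist for many further called genes. Among them are Manf, Gpr146, Smpd3, Tes, Arntl, Dbp, Bhlhe41, Pfkfb3, Slc2a1, Cdkn1c, Irak3, Il1r1, Fbn1, Col4a1 and Atp8b1. Some overlaps of called genes lie on the same strand. Among these, S100a4 overlaps Gm42674 by 2115 bases, Manf the protein-coding Rbm15b by 6511, Il1r1 Gm38070 by 6480, Smpd3 Gm26786 by 85441 and Atp8b1 AC102268.1 by 1573.

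The remaining midnight genes of this kind were enzymes and signaling proteins with smaller changes. Dhrs3, a retinal reductase, was 2.26-fold higher at ZT18, at 12.5, 21.8 and 15.7 CPM at ZT6 and 31.9, 33.5 and 39.7 CPM at ZT18 (adjusted p = 0.0182). Its groups were well apart. Ivd, an enzyme of leucine breakdown, was 1.99-fold higher, at 12.0, 10.5 and 12.2 CPM at ZT6 and 20.9, 25.5 and 23.1 CPM at ZT18 (adjusted p = 0.00768). Abat, which degrades GABA, was 2.21-fold higher, at 5.36, 4.09 and 4.54 CPM at ZT6 and 8.24, 11.5 and 11.2 CPM at ZT18 (adjusted p = 0.0202, and 0.0766 with the block). The phosphatase gene Mtmr4 (2.18-fold, adjusted p = 0.0411, with the block 0.0609) and the focal adhesion gene Tes (1.86-fold, adjusted p = 0.0361, with the block 0.0798) completed the set. Of these 5 genes, Ivd lost its call without ZT18 replicate 3 alone (adjusted p = 0.065), and the others without 3 or 4 of the 6 libraries, with adjusted p of up to 0.123 for Dhrs3, 0.166 for Abat, 0.244 for Mtmr4 and 0.192 for Tes. Among abundant genes, named after their values were seen, the sphingomyelinase Smpd3 stood at 1160.1, 1204 and 1332 CPM at ZT6 and 2038, 2091 and 1959.8 CPM at ZT18 (1.65-fold, adjusted p = 0.012) and Gas1, a Hedgehog co-receptor, at 471, 426 and 424 CPM at ZT6 and 784, 689 and 715 CPM at ZT18 (1.65-fold, adjusted p = 0.0114). Their adjusted p with 1 library left out reached 0.0686 and 0.0679.

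On the midday side, Gpr146, an orphan receptor, was at 17.2, 14.8 and 19.2 CPM at ZT6 and 7.90, 6.32 and 4.59 CPM at ZT18 (3.03-fold, adjusted p = 0.00768). Klf11, a Krüppel-like repressor with an E-box in its promoter, was at 17.2, 21.2 and 19.3 CPM at ZT6 and 7.21, 5.05 and 7.63 CPM at ZT18 (2.83-fold, adjusted p = 0.00586). Atp8b1, a phospholipid flippase, was at 58.1, 76.3 and 55.6 CPM at ZT6 and 22.3, 28.7 and 21.4 CPM at ZT18 (2.58-fold, adjusted p = 0.00507). S100a4, a calcium-binding protein, was at 41.9, 56.3 and 42.1 CPM at ZT6 and 24.7, 13.2 and 18.3 CPM at ZT18 in fibroblasts (2.57-fold, adjusted p = 0.0127), beside 872 CPM in the pooled Ptprc-positive cells. Its highest mean over the 6 zeitgeber times was at ZT14, with 77.4 ± 49.2 CPM (SD, 3 mice). The chromatin remodeler Smarca1 was at 12.0, 13.1 and 10.6 CPM at ZT6 and 6.18, 5.17 and 4.99 CPM at ZT18 (2.24-fold, adjusted p = 0.0115). Klf11 kept its call with any library left out. The other 4 lost it without ZT18 replicate 3, with adjusted p of up to 0.0557 for Gpr146, 0.0536 for Atp8b1, 0.107 for S100a4 and 0.116 for Smarca1.

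Over all kept cells, where fewer cells of a type and less RNA per cell cannot be told apart, 11 of 13278 genes were called (0.0828%). Fibroblasts made up 57.7% to 79.8% of the kept cells and gave 72912009 of their 85172238 UMIs. Calls in these sums and in fibroblasts are thus not independent. All 11 genes were also called in fibroblasts. Among them were Nr1d1, Nr1d2, Dbp, Hlf, Cpt1a, Angptl4, Loxl4 and Atp8b1 at ZT6 and Cry1 and Gm19522 at ZT18. Nr1d1 measured 119, 105 and 156 CPM at ZT6 and 3.14, 2.19 and 4.10 CPM at ZT18 in the sums of all cells (log2 5.26 ± 0.26, adjusted p = 0.00117), and Cry1 2.68, 3.70 and 2.20 CPM at ZT6 and 18.3, 26.03 and 24.4 CPM at ZT18 (log2 -3.09 ± 0.22, adjusted p = 0.00573). With collection day as a replicate block 1 gene was called, and with 1 library left out between 1 and 6. Beside this, the 6 skeletal muscle markers summed to between 648 and 14547 CPM at ZT6 and between 3524 and 17196 CPM at ZT18 in these sums.

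The share of fibroblasts among kept cells did not separate the times. It averaged 69.8% ± 10.9 at ZT6 and 71.1% ± 10.2 at ZT18 (SD, 3 mice each), and an exact two-sided permutation test gave p = 0.7 where 0.1 is the smallest this design allows. Ptprc-positive cells made up 15.5% ± 3.16 and 13.3% ± 3.89 (exact permutation test, p = 0.6).

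In Ptprc-positive cells 0 of 8058 genes passed the edgeR test (0%), 354 had an unadjusted p under 0.05, and DESeq2 called 2. Some clock genes were nevertheless apart in every library. Nr1d1 was at 34.1, 31.6 and 74.7 CPM at ZT6 and 0, 5.56 and 8.49 CPM at ZT18 (log2 2.97 ± 0.54, adjusted p = 0.935), where the 0 in ZT18 replicate 1 allows up to 6.94 CPM by counting error alone. Dbp was at 39.2, 27.5 and 65.1 CPM at ZT6 and 6.95, 10.0 and 14.1 CPM at ZT18 (log2 1.98 ± 0.38, adjusted p = 0.935). Nr1d2 was at 48.9, 27.5 and 59.9 CPM at ZT6 and 23.1, 15.6 and 11.3 CPM at ZT18 (log2 1.61 ± 0.36, adjusted p = 0.935). At ZT18, Nr1d1 rested on 0, 5 and 12 UMIs, Dbp on 3, 9 and 20 and Nr1d2 on 10, 14 and 16. Of 13 core clock genes tested in these cells, 5 did not overlap between midday and midnight, against 10.1% of genes tested. They were these 3, Per1 and Rora, all higher at ZT6. Arntl overlapped: it was at 14.8, 16.5 and 14.05 CPM at ZT6 and 16.2, 16.7 and 12.0 CPM at ZT18 (log2 0.04 ± 0.30, adjusted p = 1). These Arntl values rested on 29, 12 and 19 UMIs at ZT6 and 7, 15 and 17 at ZT18. The libraries held 26 to 140 Ptprc-positive cells. Cry1 and Per2, with 71 and 41 UMIs in all, were not tested in these cells. Both were higher at ZT18 without overlap, but for Cry1 only narrowly. Its highest ZT6 library was at 6.62 CPM and its lowest ZT18 library, replicate 1, at 6.945 CPM from 3 UMIs. Of the 91 genes called in fibroblasts, 50 could be tested in Ptprc-positive cells, and 12 of these had an unadjusted p under 0.05 there, 9 of them in the same direction. Fibroblast markers summed to 206 to 553 CPM in Ptprc-positive cells, against 66460 to 107951 CPM in fibroblasts. Col1a1, Col1a2, Col3a1 and Pdgfra are among these markers and also chose both cell groups, so that this contrast was largely set by the gates.

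**Figure D4:**
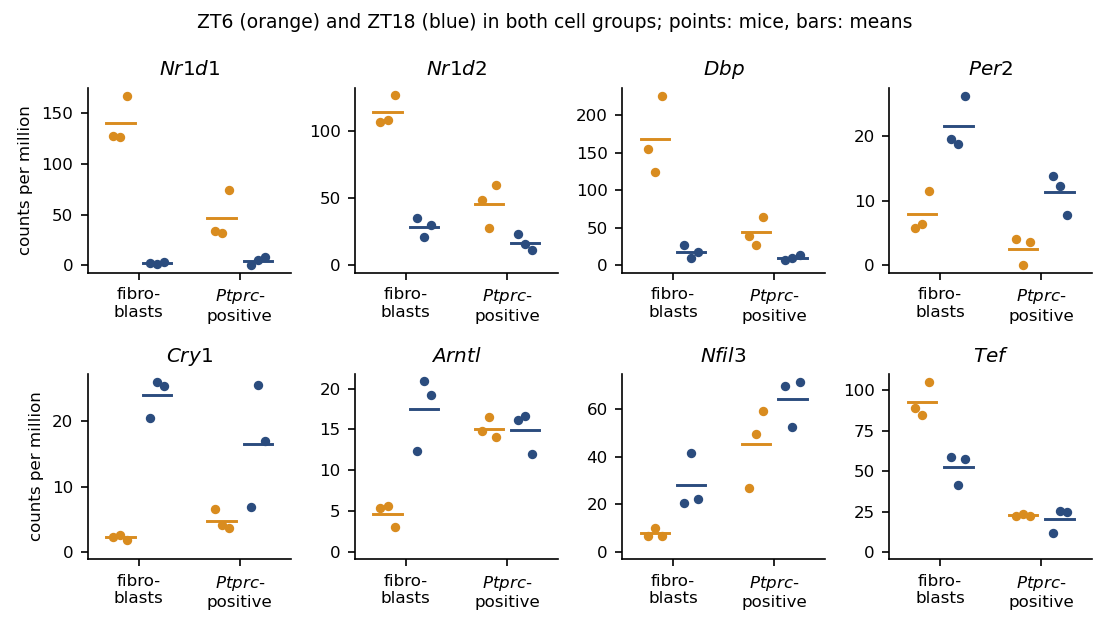
Level in CPM of 8 genes in fibroblasts and in Ptprc-positive cells, 1 point per mouse at ZT6 (orange) and ZT18 (blue), with bars at the means of 3 mice. Nr1d1, Nr1d2 and Dbp are higher at ZT6 in every library of both cell groups, while Arntl is apart in fibroblasts and overlaps in Ptprc-positive cells.

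The difference between the 2 cell groups was itself tested, blocking on the library, and 1 of 11465 genes was called (0.00872%). For Nr1d1 and Arntl the fibroblast difference minus the Ptprc-positive difference was log2 2.80 ± 0.57 and -2.05 ± 0.41, which did not pass (adjusted p = 0.25 and 0.235).

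The other 4 zeitgeber times show whether midday and midnight were the extremes of these genes. Over the means of all 6 times, 28 of the 48 genes called higher at ZT6 had their highest level at ZT6, 12 at ZT10, 6 at ZT2 and 2 at ZT14. Of the 43 genes called higher at ZT18, 27 were highest at ZT18, 12 at ZT14 and 4 at ZT22. The choice of genes by this contrast favours such an order. ZT6 and ZT18 were both the highest and the lowest time for 18 of the 48 and 20 of the 43 genes. Cpt1a was an example, with 60.8 ± 4.92 CPM (SD, n = 3) at ZT6 and 22.4 ± 2.07 CPM at ZT18 and every other time between. Dbp, Hlf, Tef, Nr1d2 and Bhlhe41 were among those highest at ZT10, and Arntl, Cry1, Nfil3 and Abat were the 4 highest at ZT22. Angptl4, Fbn1 and Col5a3 were highest at ZT2, and S100a4 was 1 of the 2 highest at ZT14. Of the genes called higher at ZT18, Per2, Cxcl13, Hyou1, Manf and Stip1 were among the 12 highest at ZT14.

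**Figure D5:**
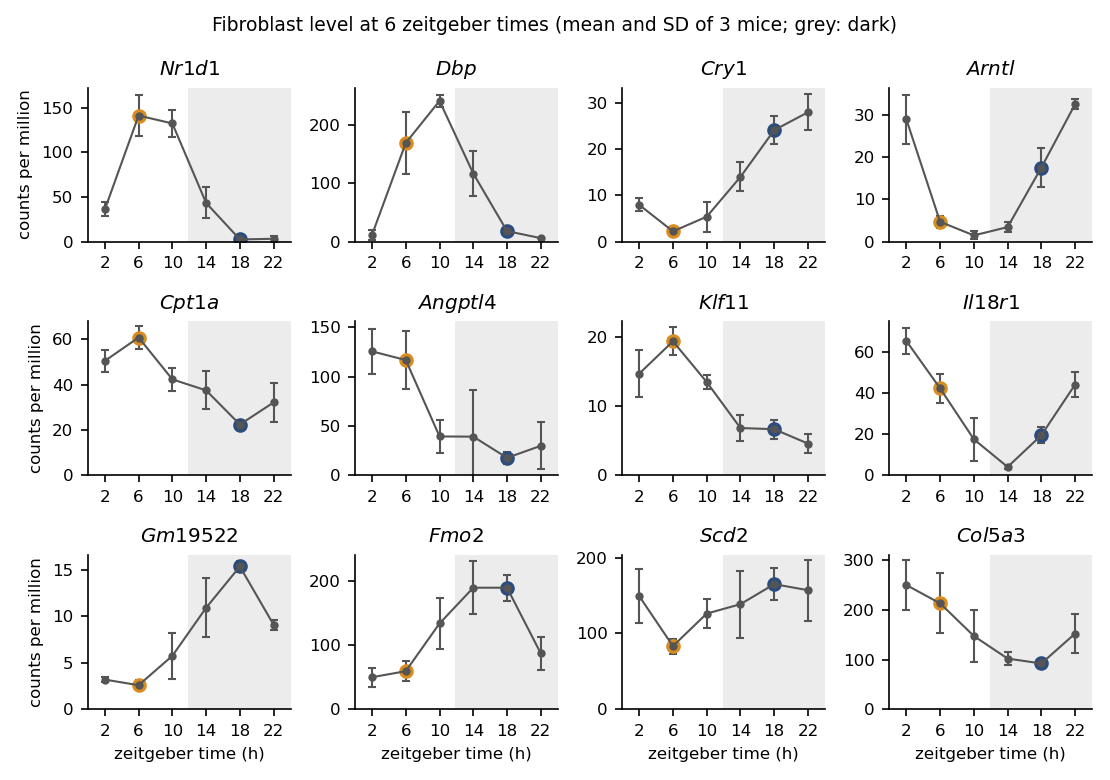
Fibroblast level in CPM (mean and SD of 3 mice, error bars cut at 0) of 12 genes at 6 zeitgeber times, with the dark phase in grey, ZT6 in orange and ZT18 in blue. Cpt1a and Nr1d1 are highest at ZT6 and lowest at ZT18, while Cry1 and Arntl go on to a higher mean at ZT22.

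A pair of tests over all 18 libraries compared the midday-midnight difference with the differences 4 h later and 4 h earlier, which use other mice. Against ZT10 minus ZT22, 38 of 12821 genes differed (0.296%), 14 of them among the 91. The ZT6 and ZT18 libraries that chose the 91 genes also enter this test and the next, so that their counts among the 91 are a description only. Without ZT6 replicate 1 or ZT18 replicate 3 no gene was called in this test, and without ZT6 replicate 3, 80 were. Fmo2 was one: it went from 59.2 ± 15.5 CPM at ZT6 to 189 ± 20.4 CPM at ZT18, but from 134 ± 39.3 CPM at ZT10 to 86.9 ± 26.3 CPM at ZT22 (log2 -2.27 ± 0.37, adjusted p = 0.0139). Il18r1 went from 42.4 ± 6.93 to 19.6 ± 3.94 CPM and from 17.6 ± 10.5 to 44.3 ± 5.93 CPM (log2 2.43 ± 0.38, adjusted p = 0.0139). In both genes the sign of the difference turned. Gm19522 differed in size (log2 -1.90 ± 0.37, adjusted p = 0.0321). For Nr1d1 both differences were apart by log2 -0.07 ± 0.67 (adjusted p = 1), and for Cpt1a by 1.05 ± 0.25 (adjusted p = 0.103).

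Against ZT2 minus ZT14, 264 of 12821 genes differed (2.06%), 28 of them among the 91, and 133 to 204 genes differed with 1 of the 6 libraries left out. Clock members were among them. Dbp stood at 11.6 ± 7.99 CPM at ZT2 and 117 ± 39.1 CPM at ZT14, the reverse of its order at ZT6 and ZT18 (log2 6.68 ± 0.55, adjusted p = 2.64e-06). Arntl reversed as well, at 29.0 ± 5.83 and 3.44 ± 1.10 CPM (log2 -5.05 ± 0.39, adjusted p = 2.28e-06). Col5a3 did not pass, at 250.2 ± 50.01 and 102 ± 12.7 CPM (log2 -0.09 ± 0.34, adjusted p = 0.963), nor did Angptl4 (log2 0.94 ± 0.96, adjusted p = 0.734). Neither of these tests called 29 of the genes higher at ZT6 and 28 of those higher at ZT18.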

How the data were processed

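Droplet single-cell libraries of dorsal dermis from 6 mice were analysed. The authors deposited raw UMI counts per gene and barcode, which the submitters' processing notes tie to Cell Ranger 3.1.0 and mm10. All 32285 listed genes were read. Barcodes with 850 to 7800 genes and under 13% mitochondrial UMIs were kept and no doublet caller was run, so that mixed droplets may remain. Counts were summed per mouse and tested with edgeR 4.0.16 (R 4.3.3; TMM normalization, low-count filter filterByExpr, quasi-likelihood F test, Benjamini-Hochberg adjustment, threshold 0.05), with DESeq2 1.42.0 as an alternative. Scripts were tested on simulated counts. Members, gene lists and tests were chosen with earlier results of these data known. Genes named by rule were the core clock, the 15 largest called changes in each direction without overlap and with at least 10 CPM, up to 4 called members of each list (otherwise the 2 smallest p), and the largest calls in the other sums. Equal replicate numbers marked the collection day in the labels. Over genes, deviations of same-numbered fibroblast libraries from their group means correlated at 0.007, -0.084 and 0.122 for replicates 1, 2 and 3. Fibroblast sums of 2878960 to 24290741 UMIs set the precision, 3 UMIs corresponding to 0.1235 to 1.04 CPM. Results for a few genes named by these rules are not reported here.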

Additional observations from a re-analysis of the deposited data

How the results depend on the processing

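In the smallest fibroblast library (ZT18 replicate 1) 3 UMIs made 1.04 CPM, which limits low genes. The cause of the changes below was not tested. Gene counts in the order all kept cells (11), fibroblasts (91), Ptprc-positive cells (0) and the difference between both cell groups (1) became 146, 236, 2 and 1 with DESeq2, and 23, 507, 140 and 68 without the filter on low counts. Leaving out the 2 libraries with the fewest cells (ZT6 replicate 2, ZT18 replicate 1), chosen after seeing the data, gave 3, 37, 2 and 39. With 1 library left out they ranged from 1 to 6, 13 (without ZT18 replicate 3) to 328 (without ZT6 replicate 3), 0 to 1 and 1 to 13. With all 18 libraries in 1 fit, all kept cells gave 17 genes and fibroblasts 121, 59 of them among the 91. With an equal number of fibroblasts per library, fibroblasts gave 38, 29 of them among the 91. Thinning to the smallest library gave 80, with 57 of the 91. Some of the 12 genes that kept their call with any library left out lost it here. In edgeR, adjusted p with all 18 libraries was 0.0528 for Hlf, 0.06 for Scd2 and 0.1 for Angptl4. With equal numbers it was 0.0612 for Hlf, 0.0674 for Scd2, 0.0822 for Fmo2 and 0.154 for Klf11. The replicate block gave 1 gene in all kept cells, 77 in fibroblasts and 0 in Ptprc-positive cells; it lost 32 of the 91 fibroblast calls, those among named genes being given above. The contrast with ZT10 minus ZT22 (38 genes) gave 98 with DESeq2, 70 without the filter, 47 with the block, 2 without the small libraries and 0 to 80 with 1 library left out; that with ZT2 minus ZT14 (264) gave 422 with DESeq2, 295 with the block, 137 without the small libraries and 133 to 204 with 1 left out. The fibroblast share difference of -1.27 percentage points became 0.2995 without the Pdgfra requirement and 2.06 over all barcodes, and ranged from -6.87 to 4.76 with 1 library left out, turning sign without ZT6 replicate 2 (4.76) or ZT18 replicate 3 (3.097). Among uncalled genes, Rorb turned to -0.0267 when libraries were thinned to the smallest, Bhlhe40 to -0.049 and -0.103 without ZT6 replicate 2 or ZT18 replicate 3 (range -0.103 to 0.385 with 1 library left out) and to -0.0462 with equal numbers of fibroblasts, and Ddx58 to 0.0027 without the small libraries. Of 1406 fits of named genes, 1108 kept direction and side of the threshold, 254 lost a call, 39 gained one and 5 turned. Leaving out fibroblasts with any muscle, red blood cell or immune marker gave no value, since 1 library kept none.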
